A study of Mus musculus with 2 samples.

Results

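The genes described here are those of the mouse major histocompatibility complex (MHC), called H2, with their main partners and regulators. They were taken as every protein-coding gene of mouse chromosome 17 in GENCODE release M21 whose symbol starts with H2-, plus Tap1, Tap2, Tapbp, B2m, Ciita, Nlrc5 and Cd74. This gave 41 of 21853 protein-coding genes: 24 class I genes, 9 class II genes, 7 partner or regulator genes, and H2-Ke6, which lies in the region and codes for a steroid dehydrogenase rather than an MHC molecule. The series mapped open chromatin by ATAC-seq, where a transposase tags accessible DNA for sequencing, in haematopoietic stem cells of C57BL/6J mice. Its 2 libraries, biological replicates 1 and 2 of 1 group, came from adults aged 5 to 6 weeks, with no engineered allele, treatment or agent named. Both libraries carry 1 donor identifier, sex was not collected, the markers used to sort the cells are not named, and a starting quantity of 50000 cells is given for replicate 2 alone. Differences between the replicates can thus be technical, and the design holds no comparison between conditions.

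Class I molecules present peptides made inside the cell to CD8 T cells and are found on nearly all nucleated cells. They consist of a heavy chain and beta-2 microglobulin (B2m), and are loaded with peptide by the TAP transporter (Tap1, Tap2) and tapasin (Tapbp). The classical heavy chains of C57BL/6 mice are H2-K and H2-D, and the many nonclassical Q, T and M genes code for related molecules, several of them restricted to particular tissues. Class II molecules present peptides from endocytosed material to CD4 T cells, chiefly on B cells, dendritic cells and macrophages, and need the invariant chain (Cd74) and the peptide editor H2-DM. Nlrc5 and Ciita are the coactivators of class I and class II genes. They bind no DNA themselves and act through RFX, CREB and NF-Y proteins bound at the X and Y boxes of MHC promoters.

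The X and Y boxes are the best known shared sequence of class II promoters, so their letters were searched first. An X-Y pair was taken as GCAAC (a half-site of the RFX-bound X box) followed by ATTGG (the Y box, bound by NF-Y) with 25 to 40 bases from start to start, on either strand, from 250 bases before to 50 bases after a transcription start site (TSS). Such a pair was found in 5 of 9 class II genes, 0 of 24 class I genes and 0 of 7 partner or regulator genes, against 1.19% of all protein-coding genes. The 5 pairs lay at chr17:34092295-34092348 (H2-Oa, plus strand), chr17:34238810-34238860 (H2-Ob, plus strand), chr17:34287859-34287912 (H2-Aa, minus strand), chr17:34305768-34305820 (H2-Eb1, plus strand) and chr17:34325535-34325587 (H2-Eb2, plus strand) of GRCm38 (mm10), from the RefSeq copy of the genome. They are printed 5′ to 3′ in the direction of the gene, with both motifs in capitals. The search asked for these exact letters, so the boxes in capitals are identical by its terms. Variants of the boxes were not searched.
H2-Oa: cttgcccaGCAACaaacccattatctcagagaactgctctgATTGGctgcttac
H2-Ob: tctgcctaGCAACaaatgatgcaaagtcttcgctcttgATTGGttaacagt
H2-Aa: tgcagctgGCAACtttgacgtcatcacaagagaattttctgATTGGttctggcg
H2-Eb1: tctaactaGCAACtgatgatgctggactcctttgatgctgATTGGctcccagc
H2-Eb2: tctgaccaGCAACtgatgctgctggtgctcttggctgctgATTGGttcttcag
The spacing from X start to Y start was 33 bases in H2-Oa and H2-Aa, 30 in H2-Ob and 32 in H2-Eb1 and H2-Eb2. The pairs of H2-Aa and H2-Eb1 lay inside accessible regions of the conservative list, 8 and 11 bases from the summit, the base of highest signal. The pairs of H2-Oa, H2-Ob and H2-Eb2 lay in no region of that list, although H2-Oa and H2-Ob had a promoter peak further inside the gene.

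The class I promoters were searched for GGGNNTTCC, a motif of NF-kappaB, and TTCNNTTTC, a motif of interferon-induced factors, in the same window and on both strands. The first was found in 5 of 24 class I genes, 3 of 9 class II genes and 1 of 7 partner or regulator genes, against 2186 of 21853 genes overall. The 4 class I promoters that held it inside an accessible region are shown because of their likeness to each other. They lay at chr17:34000435-34000473 (H2-K1, minus strand), chr17:35379429-35379467 (H2-Q4, plus strand), chr17:35424662-35424700 (H2-Q6, plus strand) and chr17:35439007-35439045 (H2-Q7, plus strand), with the motif in capitals.
H2-K1: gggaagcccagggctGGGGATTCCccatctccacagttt
H2-Q4: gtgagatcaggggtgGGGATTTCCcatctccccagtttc
H2-Q6: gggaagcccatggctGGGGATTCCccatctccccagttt
H2-Q7: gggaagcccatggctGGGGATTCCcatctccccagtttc
The fifth class I match was in H2-M2, whose promoter had no region in any list. The interferon motif was found in 4 of 24 class I genes (H2-Q2, H2-T24, H2-T23 and H2-T22), in 0 of 9 class II genes and in 6 of 7 partner or regulator genes (all but Cd74), against 15.1% of all genes. The matches of H2-T24 (chr17:36020625-36020663, minus strand) and H2-T22 (chr17:36042909-36042940, minus strand) are given as examples inside accessible regions, the first read as the reverse complement of the motif.
H2-T24: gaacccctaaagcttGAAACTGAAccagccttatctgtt
H2-T22: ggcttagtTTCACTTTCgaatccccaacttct
A composite motif of ETS and IRF factors, GGAANNGAA, was found in 1 class I gene, 1 class II gene and 3 partner or regulator genes (Ciita, Tap2 and Cd74), against 13.4% of all genes. The Y box letters alone were common, in 20 class I and 8 class II genes against 51.5% of all genes, and the X half-site alone was found in 3 class I and 7 class II genes against 49.0%. These counts include the letters of the pairs, and a gene with several starts had several windows. A match describes letters only.

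The deposited files list peaks, not reads, so the depth of each library is unknown. Peaks that overlap within a list were joined into regions, each with the summit and signal of its highest peak. The lists held 31532 regions in the conservative list, which required both libraries to rank a peak alike by the irreproducible discovery rate (IDR), 34588 in the IDR thresholded list of replicate 1 and 22434 in that of replicate 2. The more permissive pseudoreplicated lists held 78665 regions for replicate 1 and 58113 for replicate 2. Signal is the value deposited with each peak, on a linear scale whose control and scaling are not stated, and was read as a rank within a list. In the conservative list it was identical to that of the list on pooled reads for 24 of 24 member genes, so it is 1 value from both libraries. A promoter peak was a region with its summit within 1 kb of any TSS of the gene's protein-coding transcripts. Of 10 stem cell markers, 5 had a promoter peak in the conservative list (Kit, Flt3, Hlf, Meis1 and Cd34), a share close to that of all genes, and Ly6a, Slamf1, Procr, Mecom and Gata2 had none. Peaks also stood at the B cell markers Pax5 and Ebf1 and the macrophage markers Cd68 and Mertk, and at 0 of 8 dendritic cell markers.

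Most class II promoters and a minority of class I promoters had a peak, while the class I promoters with one had the higher median signal. In the conservative list a promoter peak was present at 24 of the 41 genes, against 51.5% of all protein-coding genes. Class I genes had one at 9 of 24 (37.5%, 95% Wilson interval 21.2 to 57.3), class II genes at 8 of 9 (88.9%, 56.5 to 98.0) and partner or regulator genes at 6 of 7 (85.7%, 48.7 to 97.4), and these intervals cover counting error only. The difference of class I minus class II was −51.4 percentage points. Genes in tandem clusters share ancestry and neighbourhood and are not replicates, so no p-value was computed.

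Both libraries gave the same order of the classes. In the IDR thresholded list of replicate 1, where 52% of all genes had a promoter peak, the counts were 9 of 24 class I and 7 of 9 class II genes. The list of replicate 2, with 45.6% of all genes, had 9 of 24 and 6 of 9. In the pseudoreplicated lists the counts were 9 of 24 and 8 of 9 in replicate 1, with 63.4% of all genes, and 12 of 24 and 9 of 9 in replicate 2, with 61.8%. The class I count was thus the same in every list except the pseudoreplicated list of replicate 2 among these 5.

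**Figure D1:**
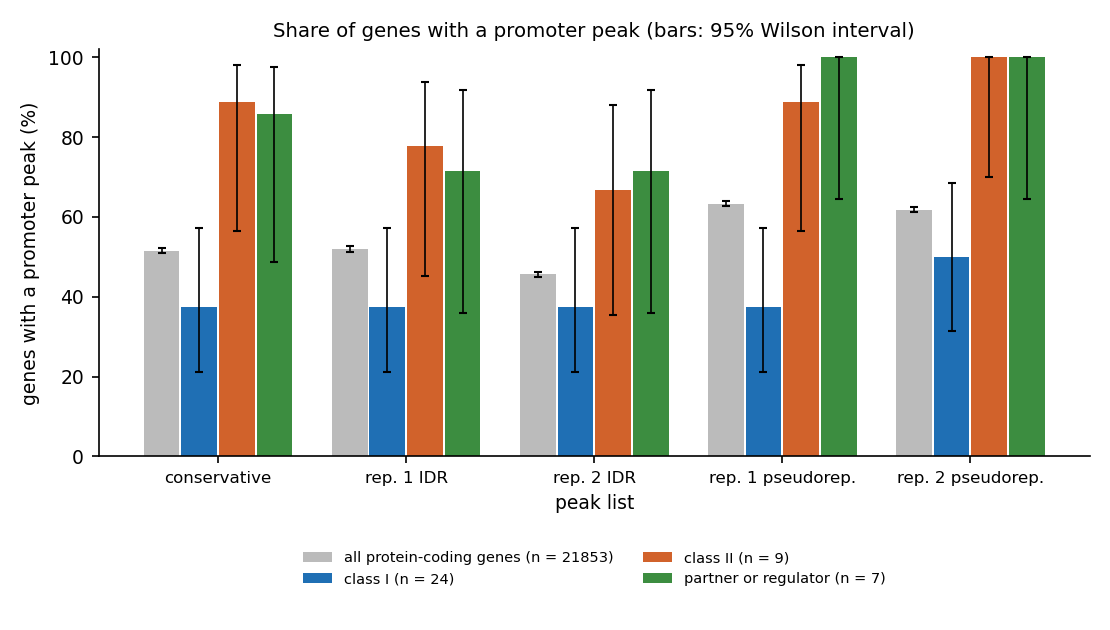
Share of genes with a promoter peak (y axis, percent) in 5 peak lists (x axis) for all protein-coding genes (grey), class I (blue), class II (orange) and partner or regulator genes (green), with 95% Wilson intervals as thin lines. The class I bar stands at 37.5% in 4 of the lists, below the grey bar, and the class II bar stands above the grey bar in each.

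Between class I and class II, the order of the signals was the opposite of the order of the shares. Among genes with a promoter peak in the conservative list, the median signal was 11.0 (range 8.53 to 16.4) in class I, 7.84 (4.82 to 13.1) in class II, 7.83 (4.94 to 11.5) in partners and regulators and 9.81 in all genes. Signals above that 9.81 were seen at 7 of 9 class I, 1 of 8 class II and 1 of 6 partner or regulator genes. The median percentile among all promoters with a peak was 64.8 for class I and 26.7 for class II in the conservative list, 61.4 and 26.9 in replicate 1, and 72.2 and 29.4 in replicate 2. The classes overlapped: H2-DMa ranked at the 86.1 percentile and H2-D1 at 34.3. When only regions above the median signal of the conservative list (8.33) were counted, the shares changed places, with 9 of 24 class I genes, 2 of 9 class II genes (H2-DMa and H2-Eb1) and 3 of 7 partner or regulator genes, a difference of 15.3 percentage points. The share of all protein-coding genes at that threshold is not given here, so these counts compare the groups with each other only.

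**Figure D2:**
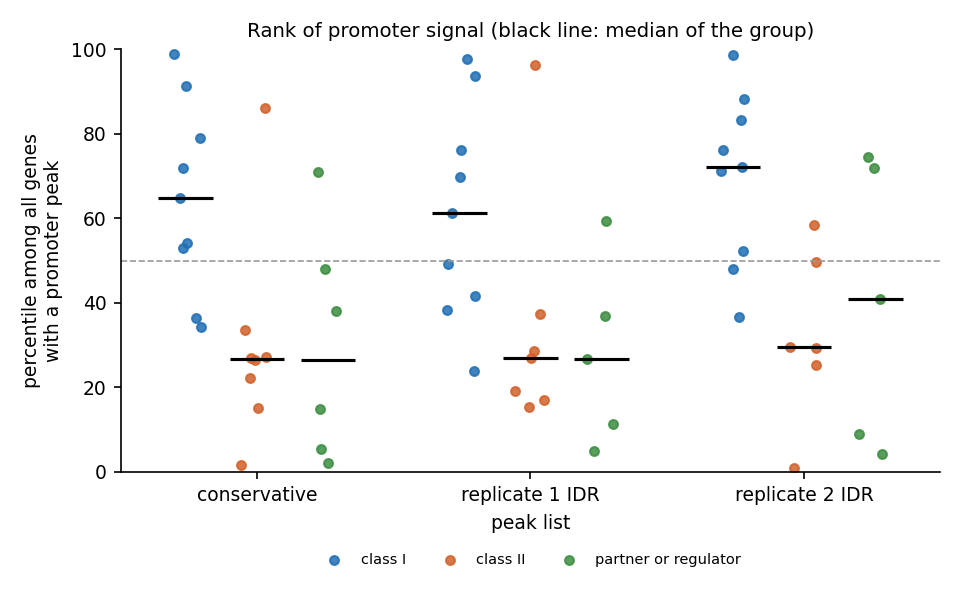
Percentile of each gene's promoter signal (y axis) among all protein-coding genes with a promoter peak, in the conservative list and each replicate's IDR thresholded list (x axis). Points are genes of class I (blue), class II (orange) and partners or regulators (green), black lines are group medians, and the dashed line is the 50th percentile; the class I median lies above it and the class II median below it in all 3 lists.

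The shares of the neighbouring genes lay between those of the classes. Of 1012 other protein-coding genes of chromosome 17, 548 (54.2%) had a promoter peak in the conservative list. Of 137 other genes between H2-K1 and H2-M2, the first and the last H2- gene along the chromosome (chr17:33996017-37483552, 3.49 Mb), 58 (42.3%) had one, and 58 of 118 (49.2%) once 19 olfactory receptor genes were left out. In the conservative list and the replicates' own lists, 20 of the 41 genes had a promoter peak in the conservative list and in both replicates' IDR lists, 4 in the conservative list and in at most 1 replicate's IDR list, 1 in no list but both pseudoreplicated lists, 4 in no list but 1 pseudoreplicated list, and 12 in none. These 12 were class I genes and had none in the other 3 lists made from both libraries either, which held Ciita, H2-Eb2, H2-Q2 and H2-M5 in at least 1 list.

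**Figure D3:**
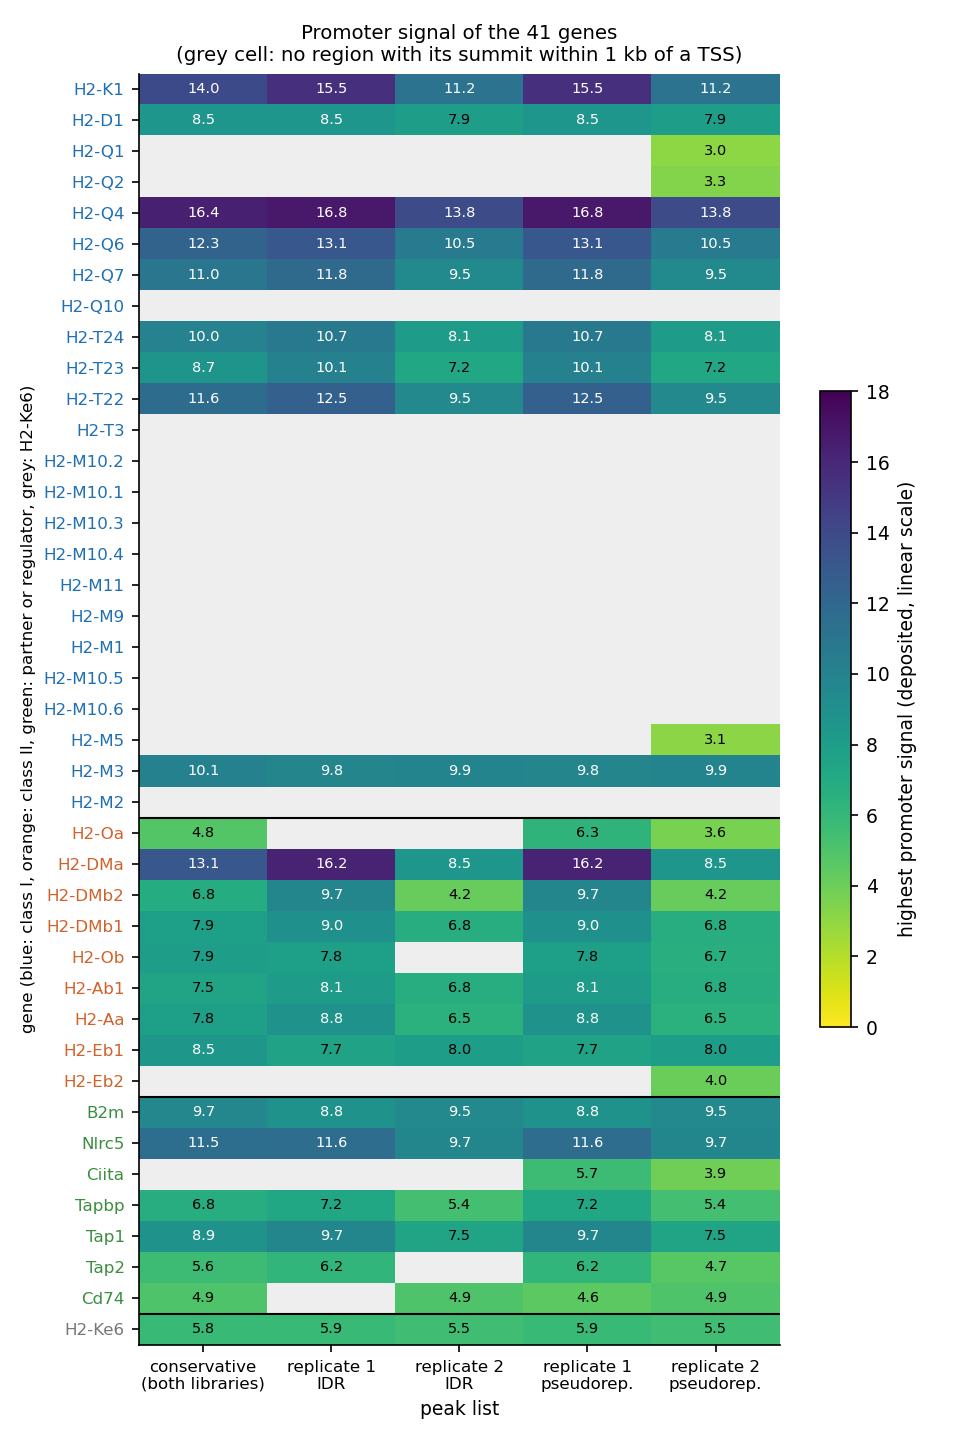
Highest promoter signal (colour and printed value, deposited linear scale) of each of the 41 genes (rows, grouped as class I, class II, partner or regulator and H2-Ke6) in 5 peak lists (columns); grey cells have no promoter peak. In the class I block 9 rows are filled in all columns, up to 16.8 at H2-Q4, 3 in the last column alone and 12 in none. The class II block is filled apart from 3 cells and the row of H2-Eb2, which is filled in the last column alone.

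Of the classical class I genes, both were open. H2-K1 had a conservative signal of 14.0, with 15.5 in replicate 1 and 11.2 in replicate 2, in a region at chr17:33999981-34000774 whose summit lay at −34 bases from the TSS. H2-D1 had 8.53, with 8.51 in replicate 1 and 7.90 in replicate 2, and its summit lay 257 bases inside the gene. H2-K1 stood above H2-D1 in both libraries, at the 93.7 and 23.9 percentiles in replicate 1 and the 88.3 and 48.1 percentiles in replicate 2.

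The Q genes held the strongest promoter of all 41 genes, next to closed ones. A promoter peak stood at 3 of 6 Q genes. H2-Q4 had a signal of 16.4, with 16.8 and 13.8 in replicates 1 and 2, at chr17:35379316-35379934, and ranked at the 98.8 percentile of all promoters. H2-Q6 had 12.3, with 13.1 and 10.5, and H2-Q7, which codes for a Qa-2 antigen, had 11.0, with 11.8 and 9.47. These 3 genes were above the median of all promoters in both libraries. H2-Q10, the gene of a class I molecule secreted by the liver, had no region in any list. H2-Q1 and H2-Q2 appeared in the pseudoreplicated list of replicate 2, with weak signals of 3.03 and 3.33, and in no list of replicate 1. H2-Q2 was also in the replicated list and the list on pooled reads, with 3.85 and 3.04.

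Of the T genes, 3 of 4 were open, and these 3 are neighbours. H2-T22, the gene of a ligand of gamma-delta T cells, had 11.6, with 12.5 and 9.53 in replicates 1 and 2. Its region (chr17:36042591-36043183) is shared with the start of the predicted gene Gm6034. H2-T24 had 10.02, with 10.7 and 8.14. H2-T23, which codes for Qa-1, a ligand of inhibitory natural killer receptors, had a pair of regions. The one at the TSS had 8.71, with 7.63 in replicate 1 and 7.23 in replicate 2. The one inside the gene, 925 bases from the TSS, had 8.58, with 10.1 and 6.00, so the stronger of the pair was not the same in both libraries. H2-T3, the gene of the thymus leukaemia antigen known from the gut epithelium, had no region in any list.

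The M genes were closed with 1 exception. H2-M3, which presents formylated peptides of bacteria and mitochondria, had a signal of 10.1, with 9.82 in replicate 1 and 9.88 in replicate 2. By rank these stood at the 38.2 and 76.1 percentiles, the widest gap between replicates among the open class I genes. The summit of H2-M3 lay 773 bases inside the gene, in an intron, within a wide region of 1244 bases (chr17:37270035-37271278). H2-M5 had a weak peak of 3.12 in the pseudoreplicated list of replicate 2 and 3.42 in the list on pooled reads, and none in replicate 1. The 6 H2-M10 genes, known from neurons of the vomeronasal organ, had no region in any list, nor had H2-M1, H2-M2, H2-M9 and H2-M11. Without the H2-M10 genes, a subset chosen after its values were seen, 9 of 18 class I genes (50%) had a promoter peak.

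**Figure D4:**
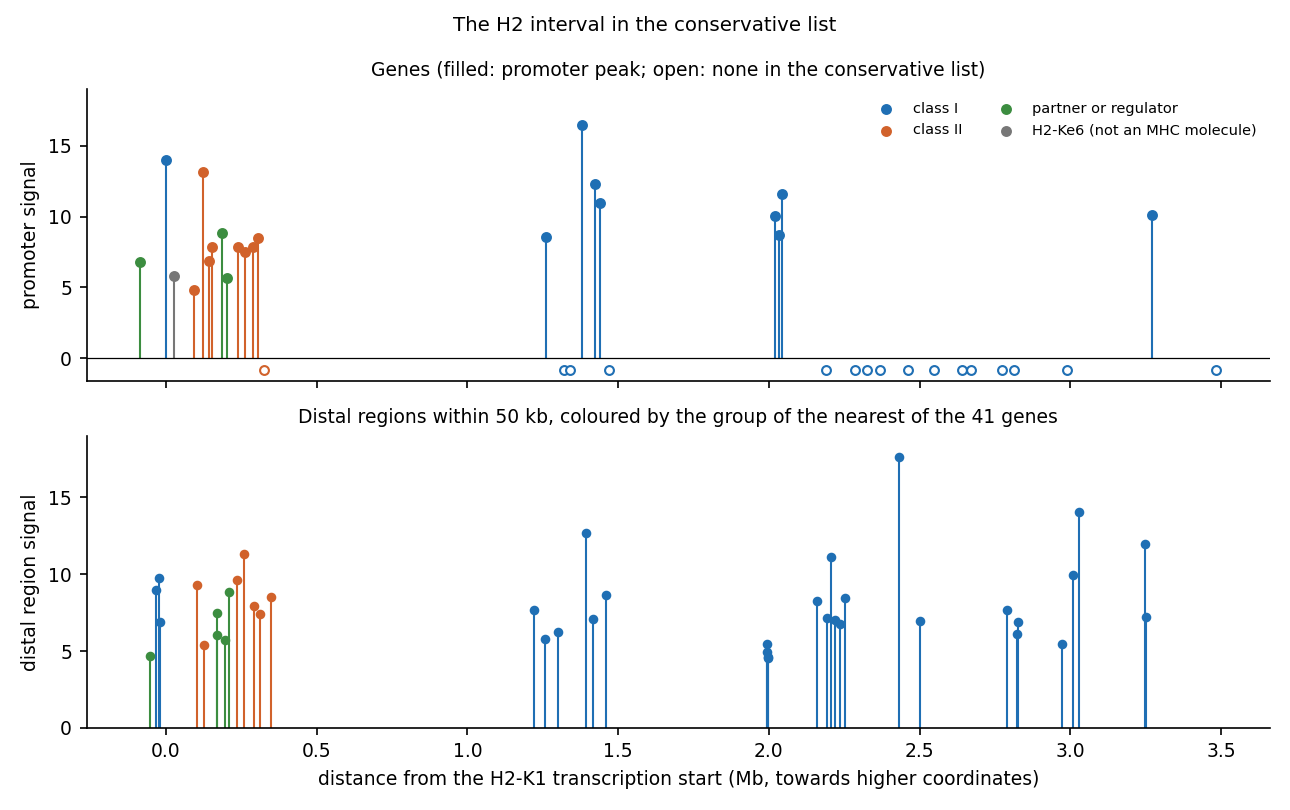
Promoter signals of the chromosome 17 genes (top) and signals of distal regions within 50 kb of them (bottom) in the conservative list, against distance from the H2-K1 TSS in Mb. Filled circles are genes with a promoter peak or regions, open circles below the axis are genes without one; the filled circles of the top panel group at the left end and between 1 and 2.1 Mb, and beyond them H2-M3 is the only filled circle, although distal regions continue.

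Among the class II genes that form the peptide-binding molecules, signals were moderate and alike. H2-Ab1, the beta chain of the A molecule, had 7.48, with 8.06 in replicate 1 and 6.77 in replicate 2. H2-Aa, its alpha chain, had 7.83, with 8.81 and 6.53, at chr17:34287587-34288057. H2-Eb1, the beta chain of the E molecule, had 8.47, with 7.66 and 7.99, at chr17:34305652-34306118. These 3 promoters lay between the 15.4 and 49.7 percentiles in both libraries, with summits at −49, −71 and −62 bases from the TSS. C57BL/6 mice make no E alpha chain, so the open H2-Eb1 promoter belongs to a chain without its partner. H2-Eb2, a further beta chain gene beside it, had 4.05 in the pseudoreplicated list of replicate 2 and 4.17 in the list on pooled reads, and none in replicate 1.

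The genes of the class II peptide editors were all open, over a wide range of signals. H2-DMa, the alpha chain of the DM editor, had the strongest class II promoter, 13.1, with 16.2 in replicate 1 and 8.55 in replicate 2, at chr17:34135252-34135919. A further region of 3.64 lay at its 5′-most TSS, with the summit within 1 kb of a start of Brd2. Among the 6 class II genes in both IDR lists the percentile of H2-DMa differed the most between replicates, 96.3 against 58.4. The beta chain genes H2-DMb1 and H2-DMb2 had 7.85, with 8.97 and 6.79, and 6.83, with 9.75 and 4.19. H2-Oa and H2-Ob code for the O molecule, which inhibits DM. H2-Ob had 7.88, with 7.83 in replicate 1 and 6.69 in the pseudoreplicated list of replicate 2, being absent from that library's IDR list. H2-Oa had 4.82, the lowest signal of the 24 open genes, and was in neither replicate's IDR list, with 6.27 and 3.61 in the pseudoreplicated lists. The summits of both O genes lay inside the gene, 408 bases from the TSS in H2-Oa and 897 bases in H2-Ob, away from the X-Y pairs printed above. A promoter window of 500 bases dropped H2-Ob and H2-M3, leaving 7 class II and 8 class I genes.

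In the list on pooled reads a weaker region lay over the boxes of H2-Ob, with a signal of 3.46 and its summit 16 bases from the centre of the pair. At H2-Eb2 the pair was covered in the pseudoreplicated list of replicate 2, with the summit 8 bases from its centre. At H2-Oa a replicate 1 region of 6.27 reached over the pair, with its summit 422 bases away.

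The partners that build and load class I molecules were open in the conservative list at all 4 genes. B2m had 9.65, with 8.79 in replicate 1 and 9.51 in replicate 2, at chr2:122147306-122148213. Tapbp had 6.80, with 7.19 and 5.41, in a region shared with the start of Zbtb22, and a further region of its own at 5.23. Tap1 had 8.85, with 9.73 and 7.47, and its region (chr17:34186951-34187947) is shared with the start of Psmb9, a subunit of the immunoproteasome on the other strand. Tap2 had 5.63, with 6.16 in replicate 1 and 4.70 in the pseudoreplicated list of replicate 2. Of the shared regions the files cannot tell which gene's start they belong to.

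The coactivators of the classes differed in state. Nlrc5, for class I, had 11.5, with 11.6 and 9.74 in replicates 1 and 2, at chr8:94433755-94434677, above the median of all promoters in both. Ciita, for class II, had no promoter peak in the conservative list or in either replicate's IDR list. Ciita is known for several promoters that different cell types use, and its protein-coding transcripts start at 6 sites spread over 9724 bases. The starts at 0 and 105 bases had no region in any of 8 lists. The start at 8220 bases had a region of 5.67 in the pseudoreplicated list of replicate 1 and 3.25 in that of replicate 2. The group of starts at 9687 to 9724 bases had 5.09 and 3.91, and 5.06 in the IDR thresholded list made from both libraries. Access at Ciita was thus confined, in these lists, to the later starts and to the permissive thresholds plus that 1 IDR list. The invariant chain gene Cd74 was also weak, with 4.94 in the conservative list, 4.94 in replicate 2 and 4.56 in the pseudoreplicated list of replicate 1, being absent from that library's IDR list.

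Markers of the cell types that express class II strongly were looked up beside these values. Of 8 dendritic cell markers, 0 had a promoter peak in the conservative list, 4 in the pseudoreplicated list of replicate 1 (Itgax, Zbtb46, Siglech and Batf3) and 3 in that of replicate 2. Cd79a, Ms4a1, Cd22 and Blk of B cells and C1qa of macrophages had none in the conservative list or in any list of a replicate used here. Adgre1 and Csf1r of macrophages had none in the conservative list, and Adgre1 had 9.21 in the pseudoreplicated list of replicate 1 and 3.81 in that of replicate 2. The part of admixed cells in the class II peaks was not tested. H2-Ke6 had 5.84, with 5.86 and 5.53.

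Other genes of antigen presentation were mostly open. From a list of 35 genes, 34 matched the annotation and 30 (88.2%) had a promoter peak in the conservative list, against 51.5% of all genes, with a median signal of 9.13 against 9.81. All 6 genes of peptide supply, 4 of 4 chaperones, 7 of 7 factors that bind MHC promoters and 8 of 8 genes of the interferon-gamma route had one. Among the promoter factors the signals ran from 7.61 at Nfya to 15.3 at Nfyc, with 10.5 at Rfx5, so the genes of the DNA-bound factors were open where Ciita was not. Of 3 class II processing genes only Lgmn had one, at 16.9. Ctss, the protease that trims the invariant chain, had 4.96 and 4.05 in the pseudoreplicated lists, and March1, a ubiquitin ligase acting on class II, had 8.73 in replicate 1 alone. Of 6 class I-like genes elsewhere in the genome 4 had one, Procr had 4.67 and 4.28 in the pseudoreplicated lists, and Azgp1 had none.

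Near-identical copies make some class I values uncertain, since reads from such copies cannot be placed. For each gene, every 50-base stretch of the promoter window (1 kb either side of each TSS) was searched for in the 21 assembled chromosomes on both strands. At H2-Q6 57.8% and at H2-Q7 53.4% of the stretches occurred again, 37.8% and 38.3% in the window of each other. The signals of H2-Q6 and H2-Q7 are therefore uncertain as to which gene they come from, and how the authors treated reads with several places is not given in the sources used here. Next came H2-T23 with 46.0%, H2-T22 with 24.0% and H2-K1 with 18.5%, while H2-DMb1, the highest of class II, had 16.3%, all of it shared with H2-DMb2. The median was 2.51% in class I genes without a peak and 18.5% in those with one, and the H2-M10 genes had 0.894% (0.0513 to 9.48). Most stretches at the closed promoters were thus unique at this length. Without H2-Q6 and H2-Q7, 7 of 22 class I genes had a promoter peak.

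**Figure D5:**
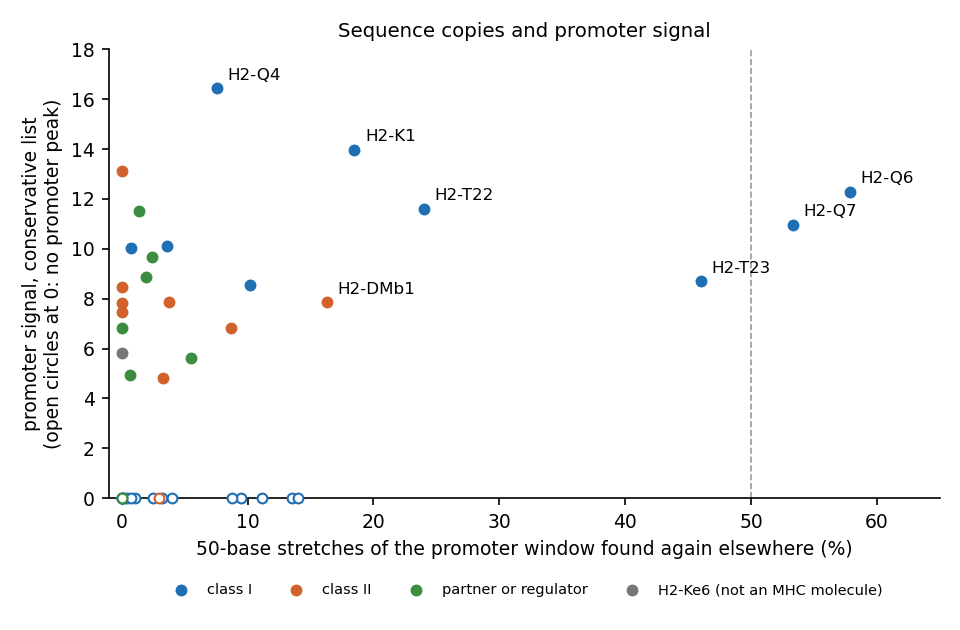
Promoter signal in the conservative list (y axis) against the percentage of 50-base stretches of the promoter window found again elsewhere in the genome (x axis), 1 point per gene, coloured by group; open circles at 0 are genes without a promoter peak. H2-Q6 and H2-Q7 lie right of the dashed line at 50%, and the genes without a peak all lie below 15%.

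The open promoters of class I and class II had unlike median base composition. Composition was taken in the window of 1 kb either side of each gene's 5′-most TSS. The median GC content was 58.2% in the 9 open class I genes, 46.1% in the 15 without a peak and 48.5% in the 8 open class II genes, against 51.3% in all genes. The ratio of observed to expected CpG was 0.617 in open class I genes, equal to the 0.617 of all genes with a promoter peak, and 0.211 in the others. In the open class II genes it was 0.194, below the 0.225 of all genes without a promoter peak. The open class II genes were thus poor in CpG at their 5′-most TSS by the median. H2-DMa stood apart at 0.607, but that window holds its weaker region of 3.64, near a start of Brd2. The H2-DMa region of 13.1 lies at a later TSS, whose composition was not measured. H2-Q10 had a GC content of 60.0% and a CpG ratio of 0.670 and no region. The ratios of H2-Q1 and H2-Q2, also without a conservative peak, were 0.486 and 0.506. Other class I genes without a peak had at most 0.436 (H2-M5). Among the open class I genes H2-T24, H2-M3 and H2-T22 had low ratios of 0.181, 0.349 and 0.359. The remaining open ones had at least 0.521 (H2-T23). Open and closed class I genes thus overlapped in composition. The strongest promoter regions were narrower in class II, with a median of 580 bases against 674 in class I and 862 over all genes.

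Distal regions, with their summit more than 1 kb from every protein-coding TSS and at most 50 kb from a TSS of a member, numbered 53 in the conservative list. At least 1 was present at 36 of 41 genes, against 61.9% of all genes, and the median was 3 per gene against 1 over all genes. It was present at 19 of 24 class I genes, 9 of 9 class II genes and 7 of 7 partners and regulators. The interval as a whole was also rich, since 109 of its 137 other genes had at least 1, with a median of 2. Of the 53 regions 38 were intergenic, 13 intronic and 2 in coding exons. The nearest member was a class I gene for 29 (median signal 7.13), a class II gene for 7 (8.49) and a partner or regulator for 17 (7.46), against a median of 7.96 over all 20306 distal regions of the list.

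The strongest distal region lay among closed promoters. At chr17:36431232-36432006, an intergenic site 30684 bases from H2-M10.4, it had a signal of 17.6, with 19.3 in replicate 1 and 12.8 in replicate 2, and ranked at the 99.7 percentile of all distal regions. The next, with 14.0 (13.2 and 11.6), was also intergenic and lay 39253 bases from H2-M5 at chr17:37028613-37029161. Its nearest protein-coding gene was Mog, at 5359 bases. The third, with 12.7 (13.7 and 10.6), lay 14415 bases from H2-Q4 at chr17:35393649-35394339 and 94 bases from a transcript start of H2-Q5, annotated as a polymorphic pseudogene. The fourth, with 12.0 (12.7 and 9.28), lay 23338 bases from H2-M3 at chr17:37246703-37247154, 79 bases from a noncoding start of Gm20429. Olfr97 was its nearest protein-coding gene, at 9552 bases. The fifth, with 11.3 (11.2 and 9.83), lay in an intron of H2-Ab1 at chr17:34257633-34258201, 5423 bases from the nearest protein-coding start and 97 bases from a noncoding transcript start of that gene. All 5 were present in both replicates' IDR lists. Distance was the only link of these regions to a gene, and none is assigned to a target here.

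Several distal regions sat at other annotated starts. Of the 53, 14 had their summit within 1 kb of a transcript start that is not protein-coding, among them H2-K2 (54 bases), H2-Q5 and H2-M6-ps (63 bases). The region in an intron of the class II gene H2-Ab1 (97 bases) was also among them. The share over all distal regions of the list was not computed, so the count has no background beside it. The region at H2-Q5 and 2 more among the Q genes had 89.4%, 96.6% and 96.9% of their 50-base stretches elsewhere in the genome, so their places are uncertain. The other 50 were under 50%. Around Nlrc5 there were 5 distal regions in the conservative list, some of them nearer to Herpud1 or Cpne2. Around Ciita there was 1, at chr16:10452322-10452911 with a signal of 8.82 (8.72 and 7.49). That region lay 27319 bases from Ciita, and its nearest gene was Tvp23a, at 5378 bases. The promoter regions of Ciita had 4.54 and 5.06 in the list on pooled reads.

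Most promoter regions of the members recurred between the libraries in both directions, while the share of distal regions depended on the direction. Of 90 regions of replicate 1's IDR list at or near the members, 55 (61.1%, 50.8 to 70.5) overlapped a region of replicate 2's list by at least 1 base. The share was 23 of 27 (85.2%, 67.5 to 94.1) for promoter regions and 32 of 63 (50.8%, 38.8 to 62.7) for distal ones. Over all regions of the list, promoter and distal together, it was 56.5%. That background was not computed by part, so the promoter and distal shares of the members have none of their own. In the other direction 56 of 64 regions (87.5%) of replicate 2 recurred in replicate 1, as did 87.5% of all its regions. By part these were 23 of 25 promoter regions (92%) and 33 of 39 distal ones (84.6%). With replicate 2's pseudoreplicated list the share of replicate 1's regions was 87.8%, so most of those missing had passed only the permissive threshold. The deposited signal was higher in replicate 1 at 21 of 25 members with a promoter peak in both pseudoreplicated lists (84%) and at 93.3% of all such genes, so it follows the libraries as a whole. B2m, H2-M3, H2-Eb1 and Cd74 were not among them by their values given above.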

How the data were processed

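ATAC-seq peak lists of 2 libraries of 1 group were used. Per the labels, the assembly is mm10. The aligner, the peak caller, the handling of the transposase offset and of reads with several places were not given in the sources used here. The signal of each peak (column 7) is the authors' own value, and its control and scaling are not stated. Each replicate's IDR thresholded and pseudoreplicated lists come from that library, and the conservative list from both. No read depth is known.

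Overlapping peaks were merged with Python 3.11.15 and numpy 2.4.6, and genes and TSSs came from GENCODE M21. Sequences were read from the RefSeq GRCm38 genome. Promoter assignment, the copy search and the pair search were tested on simulated data. A repeat search used exact stretches of 50 bases. Shares have 95% Wilson intervals (counting error only), and no p-value was computed.

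The members, gene lists and motifs were chosen with earlier results of these data known. Named with values were every class II, partner and regulator gene, every class I gene with a promoter peak in the conservative list or 1 replicate's IDR list, class I genes without one as examples, genes with copies, the 5 strongest distal regions, and list genes without a peak. Other class I genes, marker genes and distal regions were named after their values were seen. Some marker genes are not reported here. Ifi30, not protein-coding in this annotation, was not used. The alternatives were the other lists, single replicates, stronger regions only, other windows, any overlap in place of the summit, the 5′-most TSS, other overlaps and 100-base stretches.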

Additional observations from a re-analysis of the deposited data

How the results depend on the processing

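No paired analysis was possible because both libraries belong to 1 group. The order of the classes kept its direction in every alternative run except regions above the median signal, where class II fell to 2 genes, partners and regulators to 3, and the difference of class I minus class II was 15.3 percentage points. No share of all genes is given for that threshold. With 1 replicate left out, the IDR list of the other gave 9 class I genes both times, 6 to 7 class II genes, 5 partners and regulators both times, a difference of −40.3 to −29.2 percentage points and 39 to 63 distal regions. Without the 2 genes with copies the difference was −57.1. Counting any overlap in place of the summit, the 5′-most TSS alone or a window of 2500 bases left 9, 8 and 6 genes. With the 5′-most TSS alone, H2-DMa was counted by its region of 3.64 near a start of Brd2, not by that of 13.1. The number of distal regions followed the list and the window: 83 in the IDR list of both replicates, 146 in the replicated list, 158 on pooled reads, 32 within 20 kb, 86 within 100 kb and 19 above the median signal. The replicate share was 57.8% with an overlap of 50% of both regions and 87.8% against replicate 2's pseudoreplicated list. With exact stretches of 100 bases 0 genes had copies over 50% of the window, and with a lower limit on the 50-base stretches 3 had. With a motif window from 500 bases before the TSS the interferon motif was in 7 class I genes and 1 class II gene, and the X-Y pair in 5 class II genes and 0 class I genes. Depth is unknown, so a gene in no list is one without a called peak at these depths.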
